A study of Mus musculus with 16 samples.

Results

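Eosinophils with high surface CD11c, sorted from the connective tissue layer under the lining of the mouse duodenum, were compared between 2 times of day. The set described here is every gene that the authors' deposited table lists for these cells, apart from variable, diversity and joining segments of antibody genes, which makes 163 genes of the 1413 listed in either of the study's 2 tables. Of the study's 16 libraries, 8 bear on it: 4 of CD11c-high cells taken at zeitgeber time 15 (ZT15, hours after lights on) and 4 of CD11c-high cells taken at ZT3. The sample titles call these times PM and AM. No strain, genotype, sex, age or treatment other than the time of collection is given in the labels, nor whether the libraries of a group came from separate mice. The other 8 libraries are CD11c-low eosinophils at the same times, and they serve here for side by side values. Each library was made from 1000 sorted cells whose polyadenylated RNA was amplified.

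Eosinophils are granulocytes that reside in the wall of the small intestine, where they store preformed proteins in granules, make lipid mediators and take part in tissue upkeep. CD11c is an integrin alpha chain (gene Itgax) and marks a part of the intestinal eosinophils that is usually described as more activated. Leukocytes carry a molecular clock, and in nocturnal mice ZT3 falls in the rest phase and ZT15 in the active phase. The title of the study sets the comparison within the daily control of duodenal regulatory T cells by gut neurons and eosinophils.

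The table holds 1 line per gene and no value of a single library. A line gives the mean normalised count (counts scaled for library size and averaged over libraries that the table does not name), a log2 fold change of ZT15 over ZT3 that the authors had shrunken towards 0, its posterior standard deviation, and an s-value. The s-value of a gene says what share of signs would be wrong in a list drawn up to and with that gene, and every listed gene has one under 0.05. The total count of each library is therefore unknown here. Unless another quantity is named, values below are log2 fold changes ± posterior standard deviation from 4 against 4 libraries, and "rose" and "fell" refer to ZT15 relative to ZT3. Percent changes were calculated here from the shrunken log2 fold changes, so they are drawn towards 0 as well. A gene missing from a table was either not called or not tested, which says nothing of its level. The direction rests on the tables' names, since none of the 23 core clock genes looked for, whose phase could check it, is listed for CD11c-high cells.

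Markers of the sorted cells and of other cells could not be followed through the day, since none of 66 markers, 11 of them for eosinophils and the others for lymphoid, other myeloid, epithelial and stromal cells, is listed for CD11c-high cells. Neither are Itgax and the 24 other genes of an eosinophil identity list. The 9 antibody segments left out of the set were called in the same libraries, 7 higher and 2 lower, with mean normalised counts from 11.3 to 410.3. Their fitted log2 changes were 9.29 to 24.8 in size per the authors' deposited table, and no fold is read from values of that size. Their part in the changes below was not tested.

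By these shrunken values, daily change in CD11c-high eosinophils was mostly small. The named genes with the smallest s-values were falling transcripts for an endosomal membrane protein, actin branching and the nuclear lamina. Of the 163 listed genes, 86 were higher at ZT15 (52.8%) and 77 were lower (47.2%). The median log2 fold change was 0.27 among the higher genes and -0.28 among the lower ones per the authors' deposited table. A change of at least 0.5 in size was listed for 16 genes, and one of at least 1 for 4. These 4 are Arpc3, Timm29 and 2 predicted genes. An s-value under 0.01 was listed for 30 genes (18.4%), 17 higher and 13 lower. The rate of a wrong sign for a gene by itself, recovered from successive s-values, was under 0.05 for 69 genes (42.3%) and reached 0.090 for the gene least certain by it. Summed over the 163 genes, these rates amount to 8.55 wrong signs. In these bulk samples fewer cells of a kind and less RNA per cell cannot be told apart.

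**Figure D1:**
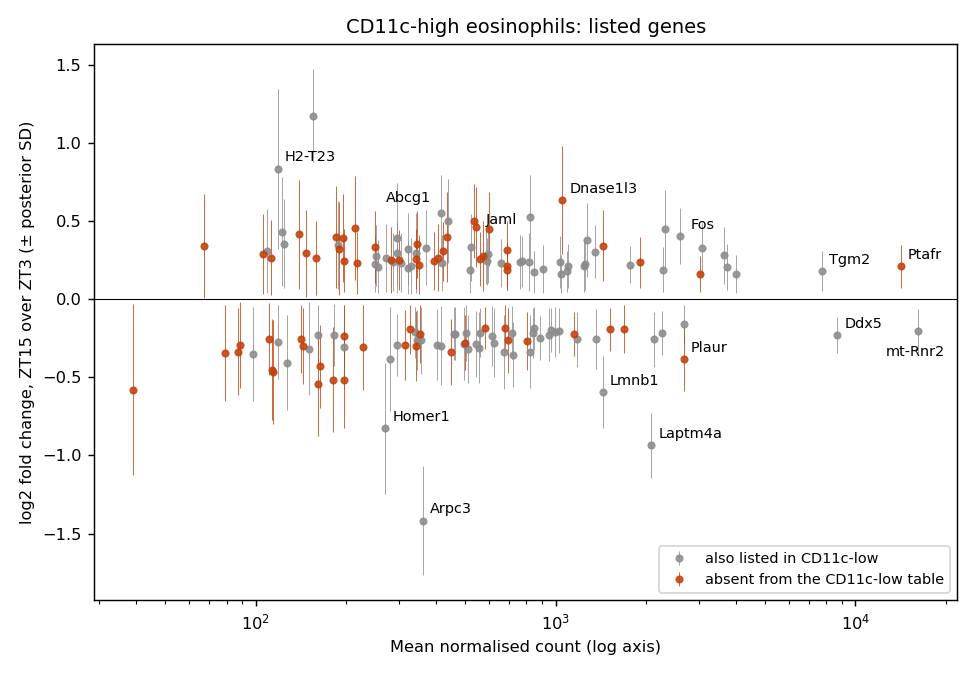
Log2 fold change (ZT15 over ZT3, bars are the posterior standard deviation) against the mean normalised count on a log axis, for 161 of the 163 listed genes of CD11c-high eosinophils (2 genes with a change beyond 1.5 are not drawn). Arpc3 (-1.42) and Laptm4a (-0.94) lie lowest among the named genes. Most drawn genes lie under 0.5 in size, but not Rpf2 (-0.58), which has the smallest mean normalised count drawn (39).

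Laptm4a (ENSMUSG00000020585.6), which encodes a membrane protein of late endosomes and lysosomes, had the smallest s-value of the set (7.53e-07). Its log2 fold change was -0.94 ± 0.21, so that its level fell by 47.7%, with a mean normalised count of 2086 per the authors' deposited table. Arpc3 (ENSMUSG00000029465.15), a subunit of the ARP2/3 complex that starts new branches on actin filaments, fell by 62.5% (log2 fold change -1.42 ± 0.35, s-value 9.06e-06) per the authors' deposited table. Lmnb1 encodes lamin B1 of the mesh under the inner nuclear membrane and fell by 33.7% (-0.59 ± 0.23) per the authors' deposited table. Homer1, a scaffold protein for calcium signalling that is best known from synapses, had a large but imprecise change of -0.83 ± 0.42 per the authors' deposited table. Among the genes that rose, the smallest s-values of named genes were those of Abcg1 (2.95e-04), Fos (5.15e-04), Jaml (7.70e-04) and St13 (0.00111) per the authors' deposited table. Their levels rose by 46.5%, 32.4%, 41.5% and 44.1% per the authors' deposited table. H2-T23 had a larger estimate with a wide error (0.83 ± 0.51) with a mean normalised count of 118 per the authors' deposited table.

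Grouped by textbook function, the named genes fall into 15 groups. Some of these lean to one direction and others are even, such as endosome and lysosome genes (4 higher, 4 lower) and translation genes (3 and 3). Against the 52.8% higher in the whole set, 11 of 13 surface receptor, adhesion and class I genes, 14 of 20 transcription and chromatin genes and 7 of 11 lipid and sterol genes rose. So did 6 of 8 mediator and cell death genes, 4 of 5 nuclear envelope and linker genes and 4 of 6 ubiquitin genes. Of the signalling genes 11 of 17 rose, a balance that turned under stricter limits. All 12 cytosolic ribosomal protein genes, 11 of 13 splicing and RNA-binding genes, 5 of 6 mitochondrial genes and 5 of 7 actin genes fell, against 47.2% lower in the set. Members of a group are not independent of each other and the groups were drawn with the results known, so these counts are a description and carry no test.

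**Figure D2:**
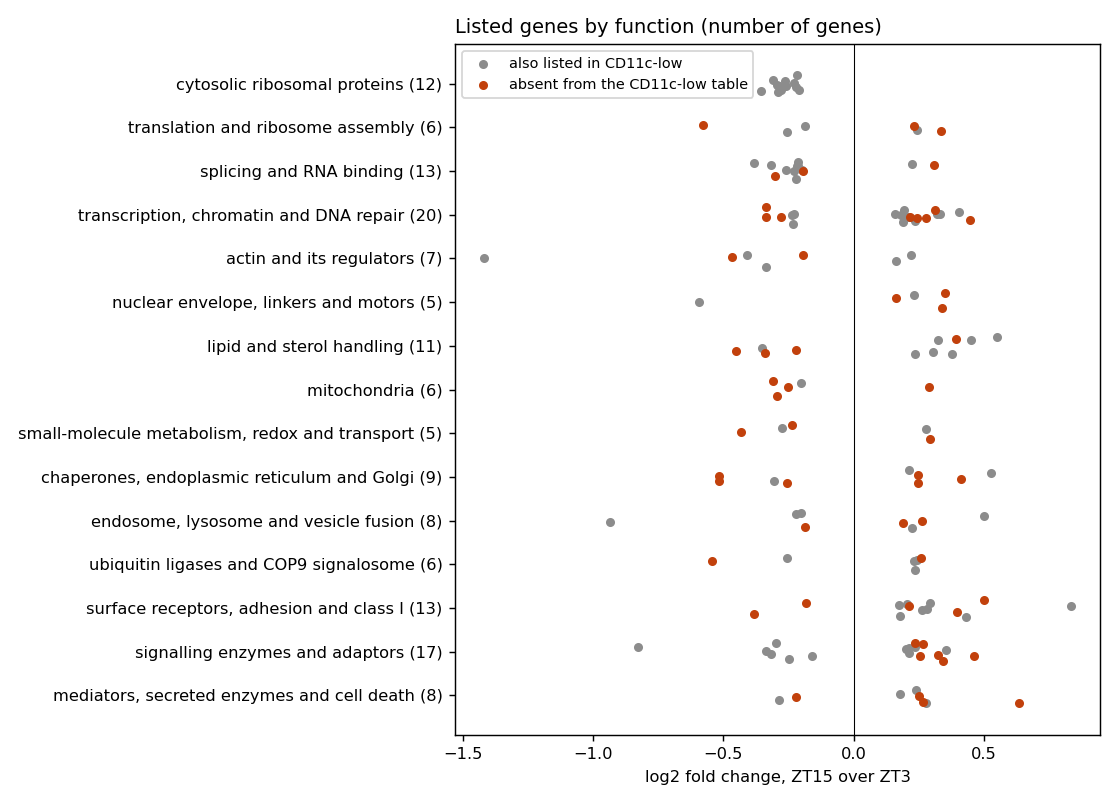
Log2 fold change (ZT15 over ZT3) of the listed genes of CD11c-high eosinophils, 1 point per gene, in 15 groups by function with the number of genes in brackets (vertical scatter within a row has no meaning, and Timm29 at -2.12 is not drawn). The ribosomal protein row lies wholly below 0, between -0.36 and -0.21, whereas 11 of the 13 surface receptor genes lie above 0.

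Transcripts for receptors and adhesion molecules rose for the most part. Jaml, an adhesion receptor of leukocytes that binds CXADR on epithelial cells, rose by 0.50 ± 0.24 per the authors' deposited table. Ptafr, the receptor for platelet-activating factor, rose by 0.21 ± 0.14, and Il1r2, the decoy receptor that takes up interleukin-1 without signalling, by 0.21 ± 0.15 per the authors' deposited table. Per kilobase of transcript these 2 had the largest mean normalised counts of the receptor group, 3896 and 2632, where the length is that of the longest annotated transcript. Gpr183, a receptor for oxysterols that positions leukocytes in lymphoid tissue, had a log2 fold change of 0.26 ± 0.22 per the authors' deposited table. Of the other trafficking molecules, the chemokine receptor gene Ccr1 rose by 0.17 ± 0.13, Itgb2, the shared beta chain of the leukocyte integrins, by 0.18 ± 0.13, and the surface glycoprotein genes Emb and Sdc4 by 0.43 ± 0.35 and 0.40 ± 0.33 per the authors' deposited table. The class I genes H2-T23, whose product Qa-1 presents a narrow set of peptides and is read by NK cell receptors, and H2-D1 (0.28 ± 0.18) rose as well per the authors' deposited table. Lilra6, a member of the leukocyte immunoglobulin-like receptor family, rose by 0.29 ± 0.20 per the authors' deposited table.

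Plaur and Pilrb1 were the receptor genes that fell. Plaur, the receptor for urokinase, which concentrates plasmin formation at the leading edge of moving cells, fell by 23.2% (-0.38 ± 0.21, s-value 0.00388, mean normalised count 2675) per the authors' deposited table. Pilrb1, an activating member of the paired immunoglobulin-like type 2 receptors, changed by -0.18 ± 0.13 per the authors' deposited table. Reads of Lilra6, Pilrb1 and the class I genes can be shared with close relatives, and the sources used here do not give how such reads were counted. Of 28 migration and adhesion genes on a fixed list, 5 are listed for CD11c-high cells, 4 higher and 1 lower, and 7 for CD11c-low cells, 5 higher and 2 lower. In all, 163 genes are listed for CD11c-high and 1326 for CD11c-low cells, so such counts cannot be set against each other directly. This holds for the lists below too. All fixed lists were chosen with earlier results of these data known.

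Of the mediator and cell death genes 6 of 8 were higher, against 52.8% in the set. With a rate of a wrong sign under 0.05, 2 were higher and 2 lower. Dnase1l3, a secreted nuclease that digests DNA in chromatin and microparticles, had a log2 fold change of 0.64 ± 0.35, which is a rise of 55.3%, per the authors' deposited table. Both listed enzymes of mediator synthesis rose, Ptgs1, the constitutive cyclooxygenase, by 0.26 ± 0.24, and Hdc, which makes histamine, by 0.24 ± 0.19 per the authors' deposited table. Tgm2, tissue transglutaminase, rose by 0.18 ± 0.13 with a mean normalised count of 7729 per the authors' deposited table. Fgl2, a fibrinogen-like protein that regulatory T cells and myeloid cells secrete, fell by 14.3% (-0.22 ± 0.14) per the authors' deposited table. The BH3-only genes, whose products start mitochondrial apoptosis, went in opposite directions. Bcl2l11, which encodes BIM, rose by 0.28 ± 0.18 and Pmaip1, which encodes NOXA, changed by -0.29 ± 0.21 per the authors' deposited table. Gsdme, a pore-forming gasdermin, rose by 0.25 ± 0.21 per the authors' deposited table. Of 32 cell death genes on a fixed list, 3 are listed for CD11c-high cells.

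Lipid genes that rose include genes of sterol synthesis, sterol export and triglyceride synthesis. Abcg1, which exports cholesterol to lipoproteins, rose by 0.55 ± 0.24 per the authors' deposited table. Pmvk, phosphomevalonate kinase of the cholesterol pathway, rose by 0.45 ± 0.25, and Dgat1, which completes triglycerides, by 0.32 ± 0.17 per the authors' deposited table. Among phospholipid enzymes, Pcyt2 of phosphatidylethanolamine synthesis rose by 0.39 ± 0.28, and the phosphatidate phosphatase gene Lpin2 by 0.23 ± 0.18 per the authors' deposited table. Fabp5l2, a close copy of the fatty acid-binding protein gene Fabp5 whose reads may be shared with it, rose by 0.31 ± 0.27 per the authors' deposited table.

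The lipid genes that fell act in lipolysis, ether lipid synthesis, fatty acid elongation and the breakdown of prenylated cysteine. Pnpla2, the lipase that starts triglyceride breakdown, fell by 26.9% (-0.45 ± 0.32) with a mean normalised count of 114 per the authors' deposited table. Agps of ether lipid synthesis changed by -0.35 ± 0.30, the elongase gene Elovl5 by -0.22 ± 0.18 and Pcyox1 by -0.34 ± 0.31 per the authors' deposited table. Of 26 cholesterol genes on a fixed list, 2 are listed for CD11c-high cells, both higher, and 6 for CD11c-low cells, 5 higher and 1 lower.

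All 12 listed ribosomal protein genes fell by similar small amounts. The smallest s-value of the group was that of Rplp1 (0.00637), a protein of the ribosomal stalk that recruits elongation factors, with a log2 fold change of -0.36 ± 0.21 per the authors' deposited table. Rps15a (-0.31 ± 0.23), Rpl22 (-0.29 ± 0.20), Rpl32 (-0.29 ± 0.23) and Rps21 (-0.29 ± 0.23) followed in size per the authors' deposited table. For Rps12 the value was -0.28 ± 0.22, for Rpl39 -0.26 ± 0.21, for Rps27a, whose product also releases ubiquitin, -0.26 ± 0.18, and for Rps24 -0.23 ± 0.17 per the authors' deposited table. The smallest changes were those of Rpl26 (-0.22 ± 0.17), Rps25 (-0.22 ± 0.18) and Rps14 (-0.21 ± 0.16) per the authors' deposited table. The group thus spans a narrow range, with a median of -0.27 against -0.28 for all genes that fell, and 4 of the 12 had a rate of a wrong sign of their own under 0.05, against 42.3% in the set. All 12 are also listed as lower for CD11c-low cells, where 45 of 48 ribosomal protein genes are lower. Many ribosomal protein genes have processed copies in the genome, and the sources used here do not give how reads that match several of them were handled.

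Ribosomal protein mRNAs are known for a run of pyrimidines at their start, through which their translation is controlled. The following stretches show the letters around the annotated starts of genes that fell together. They span 25 bases on either side of the RefSeq start (build GRCm38.p6) and have the longest run of C and T in capitals. Where a gene had several annotated starts, the start with the longest run was taken. Windows were found for 8 of the 12 genes. Of these, Rps21, Rpl22 and Rpl26 had longest runs of 7, 5 and 4. The median over all windows in the reference, with no such choice among starts, is 5. The 5 genes with a run of at least 9 are shown. They lie at chr7:118116123-118116172 (minus strand, Rps15a), chr10:23787185-23787234 (minus strand, Rps12), chr14:24490653-24490702 (plus strand, Rps24), chrX:37085198-37085247 (minus strand, Rpl39) and chr9:44407689-44407738 (plus strand, Rps25).
Rps15a: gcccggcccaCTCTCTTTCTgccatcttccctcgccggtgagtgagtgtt
Rps12: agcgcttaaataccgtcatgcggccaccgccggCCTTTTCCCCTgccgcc
Rps24: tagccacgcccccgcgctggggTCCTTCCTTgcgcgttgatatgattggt
Rpl39: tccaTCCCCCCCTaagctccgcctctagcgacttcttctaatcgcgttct
Rps25: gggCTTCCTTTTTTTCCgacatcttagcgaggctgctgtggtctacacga
Counting the first transcribed base as 1 and the base before it as -1, the runs begin at position -15 in Rps15a, 9 in Rps12, -3 in Rps24, -21 in Rpl39 and -22 in Rps25. Of those shown, the run spans the annotated start in Rps24, lies after it in Rps12 and lies wholly before it in Rps15a, Rpl39 and Rps25. A run of at least 8 pyrimidines was present in 5 of the 11 windows of these ribosomal protein genes (45.5%) and in 19.7% of all 32851 promoter windows in the reference. The match is a description of the letters, and most of the runs are not at the annotated start.

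Other genes of translation were split. Tpt1, whose mRNA is regulated like those of ribosomal proteins, fell by 16.3% (-0.26 ± 0.18) per the authors' deposited table. Eif4g1, the scaffold of the cap-binding complex, rose by 0.33 ± 0.23, while the helicase gene Eif4a2 changed by -0.19 ± 0.14 per the authors' deposited table. Of ribosome assembly factors, Riok1, a kinase of small subunit maturation, rose by 0.24 ± 0.15, Nmd3, which exports the large subunit from the nucleus, by 0.23 ± 0.20, and Rpf2 of the large subunit had the imprecise value -0.58 ± 0.55 with a mean normalised count of 39 per the authors' deposited table. On a fixed list of 39 translation factors, these 2 initiation factor genes are the listed ones.

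Of the splicing and RNA-binding genes 11 of 13 fell, each by a small amount. Ddx5, an RNA helicase of splicing and transcription, had the smallest s-value of them (0.00599) with -0.23 ± 0.12 per the authors' deposited table. The regulators of exon choice Srsf5 (-0.22 ± 0.14), Srsf6 (-0.19 ± 0.16) and Tra2a (-0.20 ± 0.14) fell, and so did the helicase gene Dhx15 (-0.26 ± 0.19), which takes spliceosomes apart, per the authors' deposited table. Sfpq (-0.21 ± 0.17) and Matr3 (-0.21 ± 0.16), both proteins of the nuclear matrix and paraspeckles, fell per the authors' deposited table. Fmr1, a repressor of translation, changed by -0.38 ± 0.33, Fam120a by -0.30 ± 0.22 and Rbm3, a protein induced by mild cold, by -0.22 ± 0.16 per the authors' deposited table. The 2 genes that rose were Prrc2c (0.31 ± 0.19), a stress granule protein gene, and Snrnp48 (0.22 ± 0.18) of the minor spliceosome per the authors' deposited table. Cdkn2aipnl was at -0.32 ± 0.30 in the high subset and at 0.23 ± 0.20 in CD11c-low cells, the one gene with opposite signs per the authors' deposited tables. The difference between these values did not pass (adjusted p = 0.641, normal test with Benjamini-Hochberg adjustment over all genes in both tables).

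Transcription and chromatin genes were higher in 14 of 20 cases. Fos, a subunit of the AP-1 factor that responds to signals within minutes, rose by 0.41 ± 0.18 per the authors' deposited table. Gtf2ird2, a TFII-I family gene, rose by 0.45 ± 0.24, Bod1l, which protects stalled replication forks, by 0.31 ± 0.19, and the histone chaperone gene Set by 0.33 ± 0.21 per the authors' deposited table. The lineage factor gene Runx3 rose by 0.32 ± 0.23, the coactivator gene Ncoa3 by 0.24 ± 0.18 and the repair gene Uvssa by 0.28 ± 0.22 per the authors' deposited table. Further genes that rose were Rprd1b (0.24 ± 0.18), Bbx (0.21 ± 0.17), Ankrd11 (0.19 ± 0.15), Klf13 (0.19 ± 0.14), Pbxip1 (0.18 ± 0.14) and Kmt2e (0.16 ± 0.12) per the authors' deposited table. The genes that fell included Gtf2a1, a subunit of the general factor TFIIA (-0.34 ± 0.21), the histone H3 lysine 36 methyltransferase gene Nsd1 (-0.28 ± 0.18) and Med14, the backbone of the Mediator complex (-0.34 ± 0.28), per the authors' deposited table. The histone H3 lysine 4 demethylase gene Kdm5a (-0.24 ± 0.19), Gpbp1 (-0.23 ± 0.20) and Swi5 (-0.23 ± 0.19) also fell per the authors' deposited table.

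Most actin genes fell, and Arpc3 stood apart from the rest by size. Mrtfa, a coactivator of serum response factor that senses free actin, fell by 27.7% (-0.47 ± 0.33), and Tmsb10, a small protein that binds actin monomers, fell by 24.6% (-0.41 ± 0.30) per the authors' deposited table. Hcls1, the leukocyte cortactin that holds ARP2/3 branches, changed by -0.34 ± 0.24, and the monomer-binding profilin gene Pfn1 by -0.19 ± 0.14 per the authors' deposited table. Tes, a focal adhesion protein gene, rose by 0.22 ± 0.12, and Coro1a, which turns over branched actin, by 0.16 ± 0.12 per the authors' deposited table. From the 9 genes for ARP2/3 subunits, Arpc3 is the one listed for CD11c-high cells, out of 163 listed genes in all. For CD11c-low cells, with 1326 listed genes, 7 are listed, 2 higher and 5 lower. Beside Lmnb1, the other genes for the nuclear envelope and cytoskeletal linkers and motors rose: Utrn by 0.35 ± 0.21, Kif5b, a kinesin heavy chain gene, by 0.23 ± 0.15, Syne1, which ties the nucleus to actin, by 0.16 ± 0.11 and the ciliary kinase gene Nek8 by 0.34 ± 0.33 per the authors' deposited table.

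Genes of folding and the secretory path went both ways, 5 higher and 4 lower, and 1 higher and 2 lower under either stricter limit. On a fixed list of 24 HSP90 and HSP70 genes, which leaves out Dnajb9, the 2 listed for CD11c-high cells rose. St13, a co-chaperone of both systems, was at 0.53 ± 0.27 and Hsp90ab1 at 0.21 ± 0.17 per the authors' deposited table. In the endoplasmic reticulum, the thioredoxin-related gene Tmx3 fell by 30.1% (-0.52 ± 0.30) and Dnajb9, a co-chaperone of BiP in the unfolded protein response, fell by 30.1% (-0.52 ± 0.34) per the authors' deposited table. Xbp1, a transcription factor of the same response, rose by 0.41 ± 0.35, and Ccdc47 of the translocon changed by -0.25 ± 0.23 per the authors' deposited table. The cargo receptor genes Tmed10 (0.25 ± 0.19) and Tmed7 (-0.30 ± 0.27) moved in opposite directions, and Glg1 of the Golgi rose by 0.25 ± 0.20 per the authors' deposited table. Of 28 genes of the unfolded protein response and folding, these 3 (Xbp1, Dnajb9 and Tmx3) are listed for CD11c-high cells.

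Endosome and lysosome genes were split, with 4 higher and, counting Laptm4a, 4 lower. Snx20, a sorting nexin that carries the selectin ligand PSGL-1 to endosomes, rose by 0.50 ± 0.27 per the authors' deposited table. The syntaxin gene Stx11, needed for granule release by cytotoxic cells, rose by 0.23 ± 0.17, the lysosomal protease gene Ctsb by 0.26 ± 0.21 and the phagosome GTPase gene Rab20 by 0.19 ± 0.13 per the authors' deposited table. Falls were listed for the proton pump subunit gene Atp6v1f (-0.19 ± 0.15), the arrestin-like Arrdc3 (-0.20 ± 0.14) and the aminopeptidase gene Lnpep (-0.22 ± 0.17) per the authors' deposited table. Among regulators of protein turnover, Cops2, a subunit of the COP9 signalosome that switches cullin ubiquitin ligases off, fell by 31.4% (-0.54 ± 0.33) per the authors' deposited table. The ubiquitin ligase genes Maea (0.24 ± 0.16), Rnf125 (0.24 ± 0.17) and Mycbp2 (0.23 ± 0.19) rose, and Rlim changed by -0.26 ± 0.19, per the authors' deposited table.

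Signalling genes were higher in 11 of 17 cases, against 52.8% in the set. The balance turned under stricter limits, to 1 higher and 2 lower with an s-value under 0.01 and to 3 higher and 4 lower with a rate of a wrong sign under 0.05. Dusp6, the phosphatase that switches off ERK, fell by 15.8% (-0.25 ± 0.14) and Gnaq, a G protein alpha subunit, fell by 20.9% (-0.34 ± 0.24) per the authors' deposited table. The catalytic phosphatase subunits Ppp1cb (-0.32 ± 0.22) and Ppp6c (-0.30 ± 0.25) and the GTPase gene Rap1b (-0.16 ± 0.12), which activates integrins, also fell per the authors' deposited table. Rises were listed for the kinase genes Cdk6 (0.34 ± 0.23), Akt1 (0.32 ± 0.30), Stk38 (0.25 ± 0.19) and Jak1 (0.21 ± 0.14) and for the phosphatase gene Ptpn1 (0.24 ± 0.17) per the authors' deposited table. The G protein beta subunit gene Gnb1 rose by 0.24 ± 0.16, the adaptor gene Sh2d3c by 0.36 ± 0.29, Nfkbie, an inhibitor of NF-kB, by 0.27 ± 0.24, Rasa2, which turns Ras off, by 0.21 ± 0.18 and Cmip by 0.20 ± 0.17 per the authors' deposited table. Of 26 genes for NF-kB signalling and cytokines, Nfkbie is the one listed for CD11c-high cells, out of 163 listed genes in all. For CD11c-low cells, with 1326 listed genes, 8 are listed, 4 higher and 4 lower.

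Mitochondrial genes other than the import receptor gene Tomm70a (0.29 ± 0.26) fell per the authors' deposited table. Aldh2, which clears aldehydes, changed by -0.29 ± 0.22, Ociad1 by -0.31 ± 0.27 and Mrpl20 of the mitochondrial ribosome by -0.25 ± 0.22 per the authors' deposited table. Timm29, part of the carrier import machinery, had the imprecise value -2.12 ± 1.45 with a mean normalised count of 27 per the authors' deposited table. The mitochondrial ribosomal RNA mt-Rnr2, which carries the largest mean normalised count of the set (16209), changed by -0.20 ± 0.14 per the authors' deposited table. None of the other 14 mitochondrially encoded genes is listed for CD11c-high cells. In small-molecule metabolism, the creatine kinase gene Ckb fell by 25.8% (-0.43 ± 0.27), and the antioxidant selenoprotein genes Gpx4 (-0.24 ± 0.20) and Selenow (-0.27 ± 0.24) fell per the authors' deposited table. The nucleotide hydrolase gene Nudt5 (0.29 ± 0.28) and the organic anion transporter gene Slco4a1 (0.28 ± 0.19) rose per the authors' deposited table. Of 9 named genes left without a group, Ankrd33b (0.30 ± 0.17), Tbck (0.40 ± 0.29), Fndc5 (0.33 ± 0.24), Mir142hg, the host transcript of a blood-cell microRNA (0.29 ± 0.18), and Ogfrl1 (0.22 ± 0.19) rose per the authors' deposited table. Suco (-0.27 ± 0.18), Lst1 (-0.26 ± 0.21), Fam76b (-0.29 ± 0.27) and Sh3bgrl3 (-0.19 ± 0.15) fell per the authors' deposited table.

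Absent from the CD11c-low table are 66 of the 163 genes (40.5%), of which 35 were higher and 31 lower. They come from every function group except the ribosomal proteins. By smallest s-value, the leading ones were Jaml, Dnase1l3, Gtf2ird2, Plaur, Tmx3 and Cops2 among those named here, and 7 of the 20 genes with the smallest s-values of the set are among the 66. Their median change in size was 0.29 against 0.26 for the 97 genes in both tables, with median mean normalised counts of 321 and 588 per the authors' deposited table. All but 1 of the 6 chaperone, endoplasmic reticulum and Golgi genes that are absent reside in the secretory path, namely Tmx3, Dnajb9, Tmed10, Glg1 and Ccdc47, the other being Xbp1. Also absent were 5 of 6 mitochondrial genes, 4 of 8 mediator and cell death genes, 3 of 5 small-molecule metabolism genes and 3 of 5 nuclear envelope and linker genes. With 8 of 20 transcription and chromatin genes and 6 of 17 signalling genes, all of the latter higher, those groups lay near the 40.5% of the set. The splicing genes, 3 of 13, lay below it. For none of the 66 genes was a difference between the subsets tested, because their CD11c-low values are not in the tables used here. The CD11c-low table is the longer one with 1326 genes, of which 692 are higher (52.2%) and 634 lower (47.8%).

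**Figure D3:**
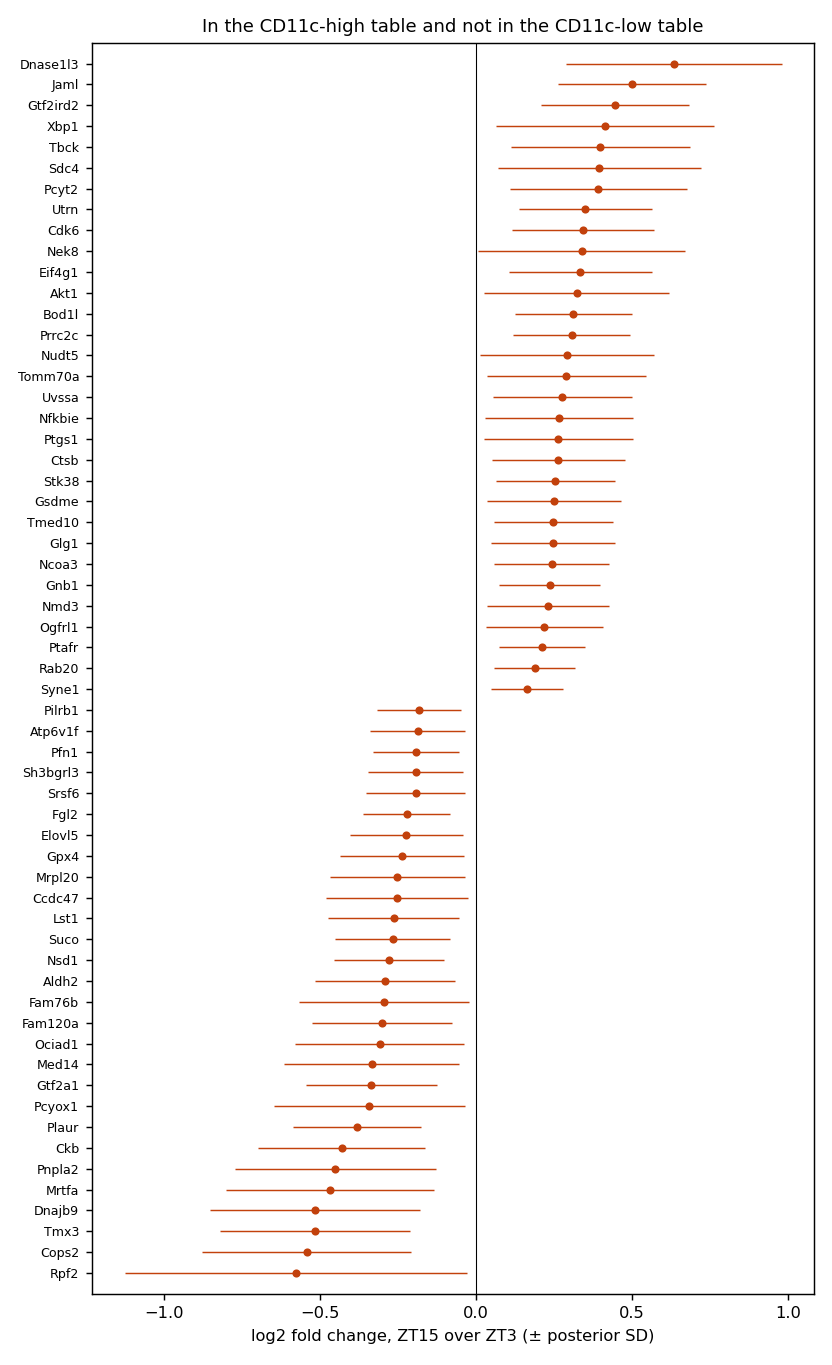
Log2 fold change (ZT15 over ZT3, bars are the posterior standard deviation) of 59 of the 66 genes in the CD11c-high table that are absent from the CD11c-low table. 3 predicted genes, Timm29 and 3 further genes are not drawn. Dnase1l3 (0.64) and Jaml (0.50) lie highest, and Rpf2 (-0.58) and Cops2 (-0.54) lie lowest.

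The E-box, written CACGTG and the same on both strands, is the element through which the clock factors CLOCK and BMAL1, and also MYC and USF proteins, bind DNA. Promoter windows of 300 bases (250 before the RefSeq start and 50 from it on, build GRCm38.p6) were found for 117 of the 163 genes. An E-box was present in 21 of their 146 windows (14.4%), in 144 of 1324 windows of the genes listed for CD11c-low cells (10.9%) and in 7.15% of all windows in the reference. Among the genes absent from the CD11c-low table the share was 14 of 60 windows (23.3%), and 7 of 86 (8.14%) among the genes that both tables hold. The cAMP response element TGACGTCA, also its own reverse complement and not contained in the E-box, was present in 8 of the 146 windows (5.48%) and in 1.79% of all windows. These shares are descriptions of letters, and the reference windows include many genes that eosinophils do not express. The last stretch below is of Il1r2, whose change passed the test of a difference between the subsets described further on. Rnf125 passed that test too, but no E-box upstream of its start was found. Whether Rnf125 had a promoter window is not given here. A link between the E-box and a difference between the subsets was not tested. The other stretches are of the 5 absent genes with the smallest s-values that have an E-box upstream of the start. All stretches have the E-box in capitals. They lie at chr5:134183836-134183875 (plus strand, Gtf2ird2), chr10:12861852-12861891 (minus strand, Utrn), chr12:44210153-44210192 (minus strand, Dnajb9), chr12:91590478-91590517 (minus strand, Gtf2a1), chr1:162740612-162740651 (minus strand, Prrc2c) and chr1:40085843-40085877 (plus strand, Il1r2).
Gtf2ird2: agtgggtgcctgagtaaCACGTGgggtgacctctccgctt
Utrn: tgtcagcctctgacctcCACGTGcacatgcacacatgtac
Dnajb9: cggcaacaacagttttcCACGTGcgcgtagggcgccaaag
Gtf2a1: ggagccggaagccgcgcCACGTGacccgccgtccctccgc
Prrc2c: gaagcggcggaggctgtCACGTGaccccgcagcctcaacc
Il1r2: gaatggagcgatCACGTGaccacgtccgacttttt
On the same count, the E-box begins at position -185 in Gtf2ird2, -139 in Utrn, -107 in Dnajb9, -13 in Gtf2a1, -78 in Prrc2c and -238 in Il1r2. Of these genes Gtf2ird2, Utrn, Prrc2c and Il1r2 rose and Dnajb9 and Gtf2a1 fell, so that the element is present on both sides of 0.

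The 97 genes in both tables allow the daily change to be compared between subsets. Each difference was set against a standard error made from both posterior standard deviations, taken as independent, and tested by a two-sided normal test, adjusted over the 97 by the method of Benjamini and Hochberg. It passed for 2 genes (2.06%), and 9 had an unadjusted p under 0.05. The sample titles number the libraries 1 to 4 alike in both subsets at each time, and whether a number marks the same mice is not given. With errors correlated at 0.5, as shared mice could make them, 9 genes passed in place of 2. For Il1r2 the change was 0.21 ± 0.15 in the high and 1.04 ± 0.18 in the low subset per the authors' deposited tables, a difference of -0.83 (adjusted p = 0.0292, normal test). For Rnf125 it was 0.24 ± 0.17 and 1.07 ± 0.17 per the authors' deposited tables, a difference of -0.83 (adjusted p = 0.0292, normal test). Both rose less in CD11c-high cells. The sources used here give neither the method nor the strength of the authors' shrinkage, and its part in these differences was not tested. Dgat1, which had the next smallest p, was at 0.32 ± 0.17 and 0.87 ± 0.11 per the authors' deposited tables and did not pass with independent errors (adjusted p = 0.191, normal test), but passed with errors correlated at 0.5 (adjusted p = 0.00575, normal test).

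The change had the same direction in both subsets for 96 of the 97 genes and was larger in size in CD11c-low cells for 79. It was larger in size in CD11c-high cells for 18, among them Laptm4a, Arpc3, Lmnb1 and Abcg1. Arpc3 was at -1.42 ± 0.35 against -0.79 ± 0.30, Lmnb1 at -0.59 ± 0.23 against -0.33 ± 0.20, Laptm4a at -0.94 ± 0.21 against -0.77 ± 0.20 and St13 at 0.53 ± 0.27 against 0.28 ± 0.21 per the authors' deposited tables. None of these differences passed, and their intervals, the difference ± its standard error, were -0.63 ± 0.46, -0.26 ± 0.30, -0.17 ± 0.29 and 0.25 ± 0.34. A p that misses the threshold does not show that the subsets changed alike.

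**Figure D4:**
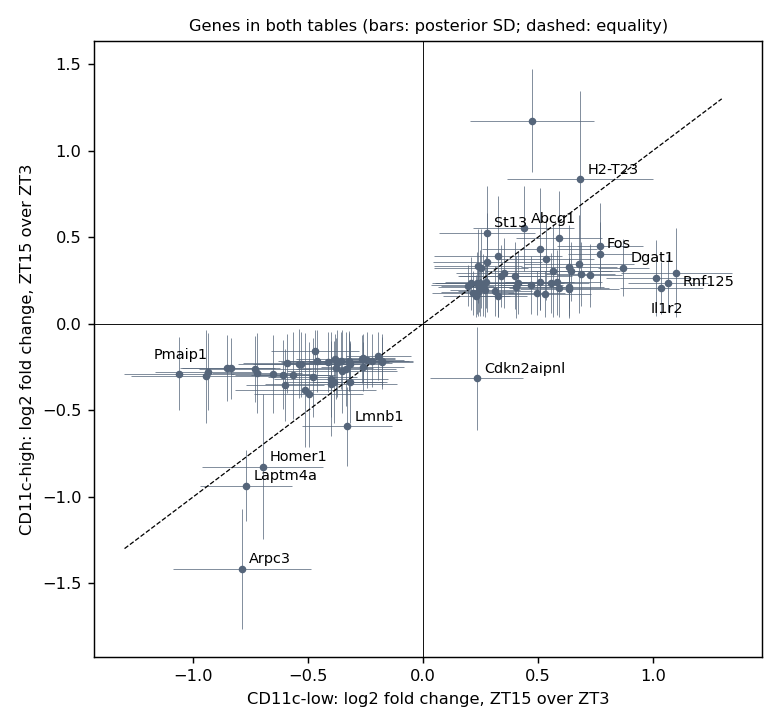
Log2 fold change (ZT15 over ZT3) in CD11c-high cells against that in CD11c-low cells for the 97 genes in both tables, with posterior standard deviations as bars and equality as the dashed line. Il1r2 and Rnf125 lie far to the right of the line at CD11c-high values near 0.2, and Arpc3 lies below the line at -1.42.

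Listed genes with short transcripts mostly fell, while the share of higher genes was alike in the middle and long classes (57.6% and 59.3%). Without ribosomal proteins, 4 of 14 short genes were higher. Among 22 listed genes whose longest annotated transcript is under 1000 bases, 4 were higher and 18 lower, against 52.8% higher in the set. The 4 were Mir142hg, Fabp5l2 and 2 predicted genes. Beside 8 ribosomal protein genes, the short transcripts that fell were those of Arpc3, Tmsb10, Pfn1, Atp6v1f, Gpx4, Selenow, Mrpl20, Swi5, Lst1 and Sh3bgrl3. Of 59 genes from 1000 to under 3000 bases 34 were higher, and of 81 genes of 3000 bases or more 48 were higher. Among the 14 genes over 8000 bases, 11 rose, among them Syne1, Mycbp2, Utrn, Cdk6, Prrc2c and Bod1l, and Nsd1, Lnpep and Kdm5a fell. This class also rests on the longest transcript. The median length over a gene's transcripts is 697 bases for Cdk6 and 1075 for Nsd1, but 10469.5 for Bod1l. Among the CD11c-low genes, 34 of 87 under 1000 bases, 355 of 557 in the middle range and 300 of 677 of the longest class were higher, and 31 of its 85 genes over 8000 bases. With the median length over a gene's transcripts in place of the longest, 17 of 46 short genes of the CD11c-high table were higher. No value of RNA quality or depth per library is in the tables, so its part in these counts was not tested.

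**Figure D5:**
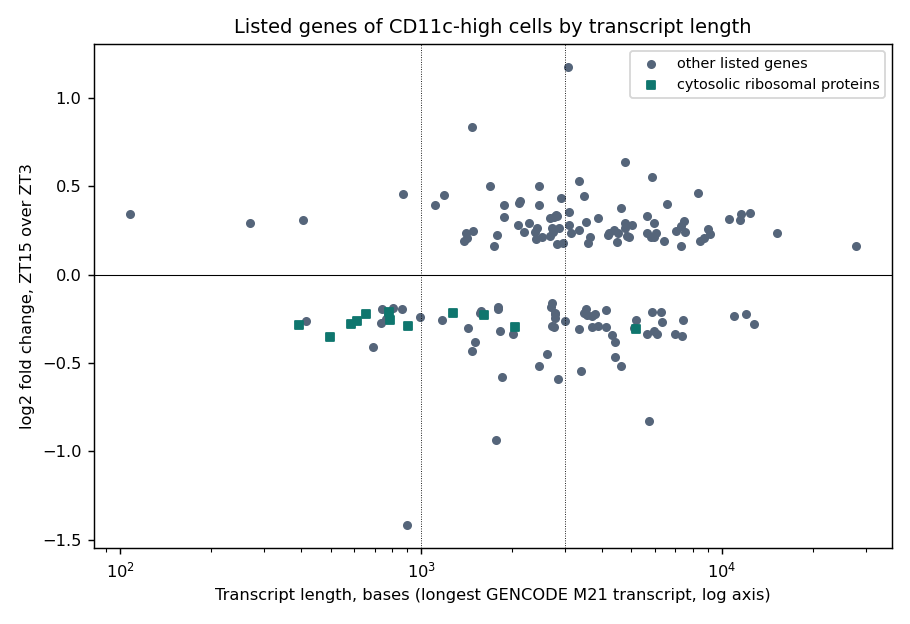
Log2 fold change (ZT15 over ZT3) in CD11c-high cells against the length in bases of the longest annotated transcript on a log axis, for 161 listed genes, with ribosomal protein genes as squares and dotted lines at 1000 and 3000 bases. Left of 1000 bases 18 of 22 points lie below 0, with Arpc3 lowest at -1.42.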

How the data were processed

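RNA of 16 libraries of 1000 sorted eosinophils each (4 groups of 4) was sequenced, and the deposited tables hold one comparison per CD11c subset. The submitters' processing notes name STAR 2.7.10b, DESeq2 1.38.3 and the build GRCm39 but no role for them. For the counter, annotation, filters and shrinkage method, no statement was found in the sources used here. Per the headers of the files, the authors deposited for each listed gene a mean normalised count (a signal averaged over libraries), a log2 fold change of ZT15 over ZT3, its posterior standard deviation on the log2 scale, and an s-value, which takes the place of a p-value or q-value. That the fold changes are shrunken follows from the s-values, which come with such estimates. The tables hold 0 columns of single libraries, so library depth is unknown, no gene was tested anew, and no replicate could be examined. Whether libraries of a group came from separate mice is not given, so the authors' errors measure the spread between libraries, which may be technical.

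Antibody V, D and J segments were left out. The rate of a wrong sign for a gene by itself was recovered from successive s-values. Differences between subsets were tested as normal deviates with Benjamini-Hochberg adjustment. The code of the test was run on simulated data with planted differences larger than any found here. The simulated errors were independent, without shrinkage and without a selection of called genes. That run therefore does not show how the test behaves on these values. Transcript lengths came from the reference annotation (162 of 163 genes matched), and promoter windows from RefSeq (GRCm38.p6, 117 matched), since no GRCm39 annotation was used here. Members of each function group were to be named in order of s-value, all in groups of up to 12 genes and the first 8 in larger ones. The remaining named members of the larger groups were added after their values were seen. The 8 predicted genes were counted and not named. 4 genes are not reported here by name and stay in the counts. The members, groups and lists were chosen with earlier results of these data known. Alternatives were stricter s-values, the rate of a wrong sign, a minimum mean normalised count of 50, antibody segments kept, predicted genes left out, correlated errors and another transcript length. Python 3.11.15, pandas 2.3.3, NumPy 2.4.6, SciPy 1.17.1 and matplotlib 3.10.9 were used.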

Additional observations from a re-analysis of the deposited data

Results flagged for a closer look

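For 2 of the 97 genes in both tables the change from ZT3 to ZT15 differed between the subsets by the test of the difference itself (two-sided normal test, Benjamini-Hochberg adjustment). All 97 had been called in each subset, the errors were taken as independent, and the part of the authors' shrinkage was not tested. Il1r2 differed by -0.83 on the log2 scale (CD11c-high minus CD11c-low, standard error 0.23, adjusted p = 0.0292), with 0.21 ± 0.15 in the high and 1.04 ± 0.18 in the low subset per the authors' deposited tables. Rnf125 differed by -0.83 (standard error 0.24, adjusted p = 0.0292), with 0.24 ± 0.17 in the high and 1.07 ± 0.17 in the low subset per the authors' deposited tables.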

How the results depend on the processing

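No value of a single library is in the tables, so leaving out replicates and refitting were not possible, and depth cannot be weighed. No paired analysis was possible because no column belongs to a library. Higher and lower counts moved from 86 and 77 to 17 and 13 with an s-value under 0.01, and to 38 and 31 with a rate of a wrong sign under 0.05, where 29 of the 66 genes absent from the CD11c-low table were left. The fewer genes counted follow from the stricter limits themselves. A minimum mean normalised count of 50 moved no count by over 1.5 times, keeping antibody segments gave 93 and 79, and leaving out predicted genes gave 81 and 74. With an s-value under 0.01, higher and lower counts were 0 and 1 for ribosomal proteins, 0 and 0 for translation, 0 and 1 for splicing, 3 and 1 for transcription, 1 and 1 for actin, 1 and 1 for the nuclear envelope, 4 and 0 for lipids, 0 and 0 for mitochondria, 0 and 1 for metabolism, 1 and 2 for chaperones, 1 and 1 for endosomes, 0 and 1 for ubiquitin, 2 and 1 for receptors, 1 and 2 for signalling, 1 and 0 for mediators and 1 and 0 for genes without a group. With a rate of a wrong sign under 0.05 they were, in the same order, 0 and 4, 2 and 1, 1 and 3, 5 and 2, 1 and 4, 2 and 1, 5 and 1, 0 and 1, 1 and 1, 1 and 2, 1 and 1, 2 and 1, 6 and 1, 3 and 4, 2 and 2, and 4 and 1. Genes with a difference between the subsets numbered 9 in place of 2 if the errors of the subsets were correlated at 0.5, and 3 with antibody segments kept. By the median transcript length, an alternative chosen after seeing the data, higher and lower counts were 17 and 29 under 1000 bases, 41 and 30 from 1000 to under 3000, and 28 and 17 from 3000 on.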

Other observations

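Several pairs of genes with adjoining roles were listed in opposite directions in CD11c-high cells. They were picked after their values were seen, and the difference within a pair was not tested. Dgat1, which completes triglycerides, was at 0.32 ± 0.17, and Pnpla2, which starts their breakdown, at -0.45 ± 0.32 per the authors' deposited table. Xbp1, a factor of the unfolded protein response, was at 0.41 ± 0.35, and Dnajb9, a gene that XBP1 is known to switch on, at -0.52 ± 0.34 per the authors' deposited table. Tmed10 was at 0.25 ± 0.19 and Tmed7, its partner in cargo receptor complexes, at -0.30 ± 0.27 per the authors' deposited table. Of 19 genes of the active state of intestinal eosinophils on a fixed list, 3 are listed for CD11c-high cells, all higher where 52.8% of the set is higher, and 11 for CD11c-low cells, all higher where 52.2% of that table is higher. Of 24 HSP90 and HSP70 genes on a fixed list, 2 are listed for CD11c-high cells, both higher. For CD11c-low cells 5 are listed, 4 higher and 1 lower, beside the same shares. Both the active state list and this one were chosen with earlier results of these data known, so these counts carry no test.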
